A study of Mus musculus with 12 samples.

Results

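The genes described here are 49 mouse genes of mitosis and the spindle, out of 54356 genes measured in 12 RNA-seq libraries of cultured astrocytes. They were chosen by name for their roles in cell division, and the reads of all their transcripts were summed per gene. Astrocytes of the cortex and of the midbrain of C57BL/6 mice were sequenced as mock cultures in growth medium and after 2 or 4 weeks with an shRNA against PTB in neuronal differentiation medium. PTB is the polypyrimidine tract binding protein, a splicing repressor encoded by Ptbp1, whose loss has been reported to turn astrocytes into neurons. Each of the 6 groups had 2 libraries. Nothing in the labels ties these to different animals or cultures, and p-values therefore rest on a spread between libraries that may be technical. No control hairpin and no mock culture in differentiation medium was among the groups, so the hairpin, the medium and the time in culture cannot be told apart. In cultures of mixed cells, fewer dividing cells and less of each RNA per dividing cell cannot be told apart either.

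A cell enters mitosis when cyclin A or B activates the kinase Cdk1, helped by the kinases Plk1 and Aurora A. Chromosomes are condensed, kinetochores bind them to spindle microtubules, and a checkpoint holds back anaphase until all are attached. Cdc20 then directs the anaphase-promoting complex, a ubiquitin ligase, to destroy securin and cyclin B, after which the chromatids part and the cell is cleaved. Most of these genes are transcribed mainly in G2 and mitosis. In resting cells many are repressed by the DREAM complex (the MuvB core of Lin9, Lin37, Lin52, Lin54 and Rbbp4 with an Rb-like protein and E2f4) at a promoter element called the cell cycle genes homology region, or CHR. In dividing cells, MuvB joins Mybl2 and Foxm1 and activates them, together with nuclear factor Y at CCAAT boxes. Astrocytes divide in young brain and in growth medium, while neurons do not divide.

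Promoters are shown for 5 of the 33 members that were called lower at both times in both regions, and for Bub3 and Pttg1, the members whose levels were not below mock on the TMM scale used here (Bub3 reverses with the transcript length offset and Pttg1 with library totals). The 5 were picked by hand. Each held a CHR and at least 2 CCAAT boxes, as did only 18 of the 40 members (45.0%) with a promoter entry. The sequences are from RefSeq (build GRCm38.p6), 120 bases before to 30 bases after the start of transcription, read 5′ to 3′ along the gene. Capitals mark each match to a CHR (TTTGAA or TTCGAA) or a CCAAT box, on either strand. The windows are chr4:118437314-118437463 on the minus strand for Cdc20, chr9:70421525-70421674 minus for Ccnb2, chr10:69352883-69353032 minus for Cdk1, chr11:99024160-99024309 minus for Top2a, chr9:83834569-83834718 plus for Ttk, chr7:131560250-131560399 plus for Bub3 and chr11:43425952-43426101 minus for Pttg1.
Cdc20: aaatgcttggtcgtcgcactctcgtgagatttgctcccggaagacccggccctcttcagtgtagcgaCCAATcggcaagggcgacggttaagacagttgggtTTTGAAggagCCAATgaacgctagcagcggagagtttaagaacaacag
Ccnb2: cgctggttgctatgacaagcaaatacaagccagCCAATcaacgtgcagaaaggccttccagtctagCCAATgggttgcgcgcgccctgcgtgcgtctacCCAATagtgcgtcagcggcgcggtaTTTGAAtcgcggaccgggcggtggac
Cdk1: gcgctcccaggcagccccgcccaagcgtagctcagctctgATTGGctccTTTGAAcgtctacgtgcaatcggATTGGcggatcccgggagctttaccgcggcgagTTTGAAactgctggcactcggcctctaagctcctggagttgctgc
Top2a: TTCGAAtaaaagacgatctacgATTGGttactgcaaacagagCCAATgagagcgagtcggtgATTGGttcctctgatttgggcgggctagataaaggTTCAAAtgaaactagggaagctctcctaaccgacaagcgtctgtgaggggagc
Ttk: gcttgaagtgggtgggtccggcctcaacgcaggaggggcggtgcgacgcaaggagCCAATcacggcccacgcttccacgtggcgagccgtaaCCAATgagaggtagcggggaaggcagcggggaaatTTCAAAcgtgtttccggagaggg
Bub3: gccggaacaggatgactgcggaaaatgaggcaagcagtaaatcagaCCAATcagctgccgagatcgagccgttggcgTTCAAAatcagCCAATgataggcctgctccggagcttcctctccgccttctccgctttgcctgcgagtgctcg
Pttg1: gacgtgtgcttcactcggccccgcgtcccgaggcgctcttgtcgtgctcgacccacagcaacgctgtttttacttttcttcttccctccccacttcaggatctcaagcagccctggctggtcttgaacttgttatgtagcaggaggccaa

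In Cdc20, Ccnb2, Cdk1 and Ttk at least 1 CHR lay within 50 bases of the start with a CCAAT box upstream of it, and Top2a had a CHR 23 bases before the start with CCAAT boxes further upstream. Bub3 held a CHR 43 bases before the start between 2 CCAAT boxes, and its level was not below mock on the TMM scale, but was with the transcript length offset. Pttg1 held neither motif in the 300-base window searched, 250 bases before to 50 after the RefSeq start. That window, 43425932 to 43426231, lay wholly inside the gene as annotated by GENCODE, which starts at 43426251 on the minus strand. Sequence upstream of that GENCODE start was therefore not searched. Neither motif was found for Nuf2, Nusap1 and Ncaph, which were lower at both times in both regions, or for Mad2l1 and Birc5. The Mad2l1 window ended at 66535270, before its GENCODE start at 66535390. Windows of Cdca3, Cdca8, Kif2c and Kif4 also lay inside the GENCODE gene. Ccnb1 and Cenpe, also lower at both times in both regions, held a CCAAT box and no CHR. Of the 49 members, 40 had an entry in the promoter table (none for Ccna2, Spc24, Kif20a, Smc4, Aurkb, Cdc25c, Foxm1, Tpx2 and Incenp). A CHR was found in 32 of the 40 (80.0%), against 19.2% of the table's 32851 promoters of that length. A CCAAT box was found in 29 (72.5%, against 37.4% of all), and both motifs in 27 (67.5%, against 7.52%). The CHR matches were close to the start: 30 of 40 members (75.0%) had one within 50 bases, against 5.31% of all promoters. TTCGAA reads the same on both strands, neither motif contains the other, and a match is only a match of letters.

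**Figure D1:**
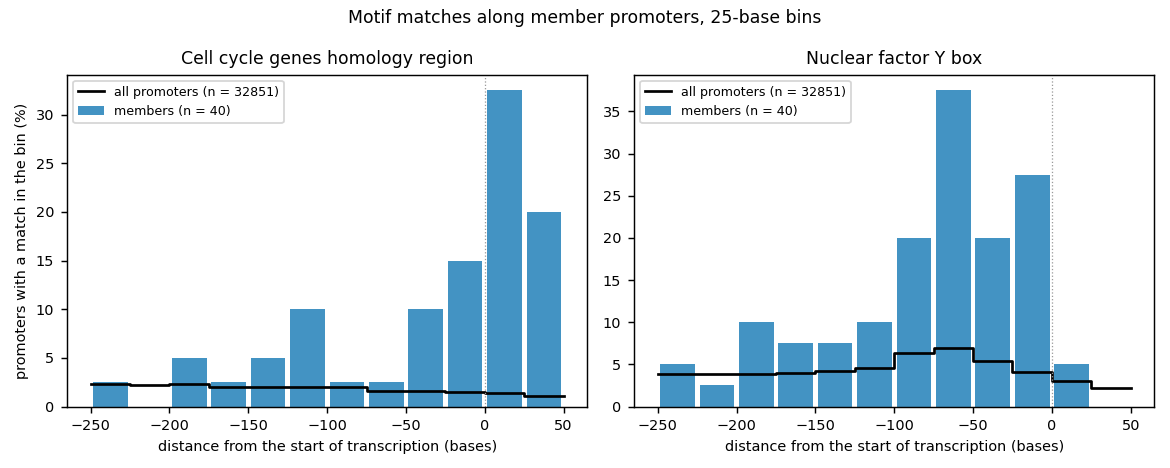
Share of promoters with a motif match starting in each 25-base bin, in percent, against the distance from the start of transcription in bases; bars are the 40 members with a promoter entry and the line is all 32851 promoters. CHR matches (left) of the members were most frequent just after the start, in 32.5% of promoters from 0 to 25 bases (1.43% of all), and nuclear factor Y boxes (right) from 75 to 50 bases before it, in 37.5% (6.99% of all).

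Libraries held 6022098 to 11385761 reads, and levels are CPM, counts relative to the library's total, with totals scaled by the trimmed mean of M-values (TMM). Mitochondrial RNA took 16.9 to 22.7% of reads in mock and 36.4 to 48.3% in shPTB libraries. Scaling matters: with reads divided by library totals alone, the median gene moved from about no change to between -0.74 and -1.21 on the log2 scale against mock. The part of mitochondrial RNA in this shift was not tested. The target RNA Ptbp1 had 173 to 251 CPM in mock, 73.0 to 105 CPM at 2 weeks and 89.2 to 169 CPM at 4 weeks, and was lower by the test in all comparisons with mock except midbrain at 4 weeks (-0.50 ± 0.20, edgeR adjusted p = 0.0744). Microglia markers fell with the members (13 of 14 in each comparison with mock, P2ry12 being higher in midbrain at 2 weeks): their summed level was 1740 to 2450 CPM in mock, 150 to 198 at 2 weeks and 90.8 to 124 at 4 weeks, and only Ctss had no read in a group (midbrain at 4 weeks). Summed fibroblast and pericyte markers were 826 to 2220 CPM in mock, 119 to 338 at 2 weeks and 51.1 to 255 at 4 weeks, with Col3a1 and Dpt at 0 in cortex at 4 weeks. Of those 10 markers 4 or 5 were lower and 2 or 3 higher in each comparison, Dcn and Pdgfrb in all 4. Summed astrocyte markers were 11400 to 22300 CPM in mock and 7840 to 15100 CPM in shPTB libraries, with none at 0, and 2 to 4 of 10 lower and 1 to 3 higher. Summed neuron markers were 160 to 255 CPM in mock and 57.7 to 133 CPM in shPTB libraries, with 3 to 6 lower and 1 to 4 higher (Syn1 in all 4 comparisons, Rbfox3, Snap25 and Syt1 in cortex at 2 weeks) and Elavl4 at 0 in 3 shPTB groups. Summed ependymal markers were 183 to 230 CPM in mock and 18.6 to 72.9 CPM in shPTB libraries (6 or 7 of 8 lower, Tmem212 higher in midbrain), and neural progenitor markers 3090 to 3990 and 737 to 2350 CPM (5 of 7 tested lower). Summed oligodendrocyte and precursor markers went up in cortex, from 161 and 186 CPM in mock to 418 and 453 CPM at 2 weeks and 466 and 449 CPM at 4 weeks (7 and 6 of 10 tested higher), and were 255 and 298, 235 and 230, and 269 and 258 CPM in midbrain (5 and 2 higher). Endothelial markers summed to at most 23.4 CPM in any library. The part of these other cells in the fall of the mitotic genes was not tested. Beside these marker counts, 14.7 to 20.9% of all genes tested were lower and 15.9 to 18.7% higher in the comparisons with mock. The marker lists are short, and their counts were not tested against these shares.

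Most mitosis genes fell after shPTB and the change of medium, more of them passing the test at 4 than at 2 weeks. In cortex, 38 of the 48 tested members were lower at 2 weeks, against 17.6% of all 14607 genes tested, and 44 at 4 weeks, against 20.9%. In midbrain, 37 were lower at 2 weeks (14.7% of all genes) and 44 at 4 weeks (20.4%). With the transcript length offset the numbers lower at 2 and 4 weeks were close in cortex, 37 and 38, and were 32 and 43 in midbrain. A member was called at a Benjamini-Hochberg adjusted p under 0.05 in edgeR's quasi-likelihood test, and both comparisons of a region share its 2 mock libraries. The median log2 fold change of the members was -2.81 in cortex at 2 weeks and -3.86 at 4 weeks, and -2.27 and -3.53 in midbrain, where the medians of all genes were -0.11, -0.12, -0.07 and -0.15. With genes that had 0 reads in a group set at their bound, the members' medians were -2.76, -3.57, -2.27 and -3.40. In the shPTB libraries alone 25 of the 49 members would have passed the filter on low counts, and 23 more were tested only through their mock libraries, so these counts are a description and no test of the group. Ect2 was too low everywhere to be tested.

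The same fall can be read from the libraries. In 42 of 49 members all 8 shPTB libraries were below all 4 mock libraries, against 16.9% of all genes tested, and the others were Aurkb, Bub3, Cdc25c, Birc5, Spc25, Espl1 and Pttg1. Lower calls in all 4 comparisons with mock were made for 33 of 49 members (9.34% of all genes). With 2 libraries a group, many calls rest on single libraries. Of 39 members called in cortex at 2 weeks, 11 were no longer called without some 1 library (Anln, Bub3, Cdc20, Incenp, Kif20a, Kif2c, Kif4, Ncapg, Spc25, Ttk and Ube2c), with adjusted p up to 0.175. At 4 weeks in cortex it was 11 of 45 (Aurkb, Cdc25c, Incenp, Kif15, Kif18b, Kif20b, Kif2c, Kif4, Mad2l1, Smc2 and Ube2c), with adjusted p up to 0.258. In midbrain it was 14 of 37 at 2 weeks (Aurka, Bub1b, Ccnb2, Cdc20, Foxm1, Incenp, Kif15, Kif18b, Kif20b, Kif4, Mad2l1, Ndc80, Plk1 and Ttk; adjusted p up to 0.226) and 10 of 45 at 4 weeks (Aurka, Birc5, Cdc25c, Espl1, Kif18b, Kif2c, Kif4, Mad2l1, Ttk and Ube2c; adjusted p up to 0.222). Both shPTB libraries lay below both mock libraries in 44 members in cortex at 2 weeks (34.9% of all genes), 47 at 4 weeks (36.4%), and 45 and 46 in midbrain (33.9 and 37.8%). Bub3 and Pttg1 held most of what remained. Without those, the other 47 members summed to 537 and 608 CPM in the cortex mock libraries, 90.6 and 81.0 CPM at 2 weeks and 46.0 and 52.1 CPM at 4 weeks. In midbrain the sums were 549 and 618 CPM in mock, 116 and 123 CPM at 2 weeks and 65.5 and 64.0 CPM at 4 weeks. The groups did not overlap in either region, and the sum came to 15 and 8.57% of mock in cortex at 2 and 4 weeks and 20.5 and 11.1% in midbrain. Low reads limit these values: among the 49 members, those with no read in either library numbered 4 in cortex at 2 weeks, 7 in cortex at 4 weeks, 1 in midbrain at 2 weeks and 4 in midbrain at 4 weeks. For such genes a fold is a lower bound, computed with 3 reads over the group, and where 1 to 3 reads were left, an exact 95% interval follows the ratio. Both cover counting error only.

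**Figure D2:**
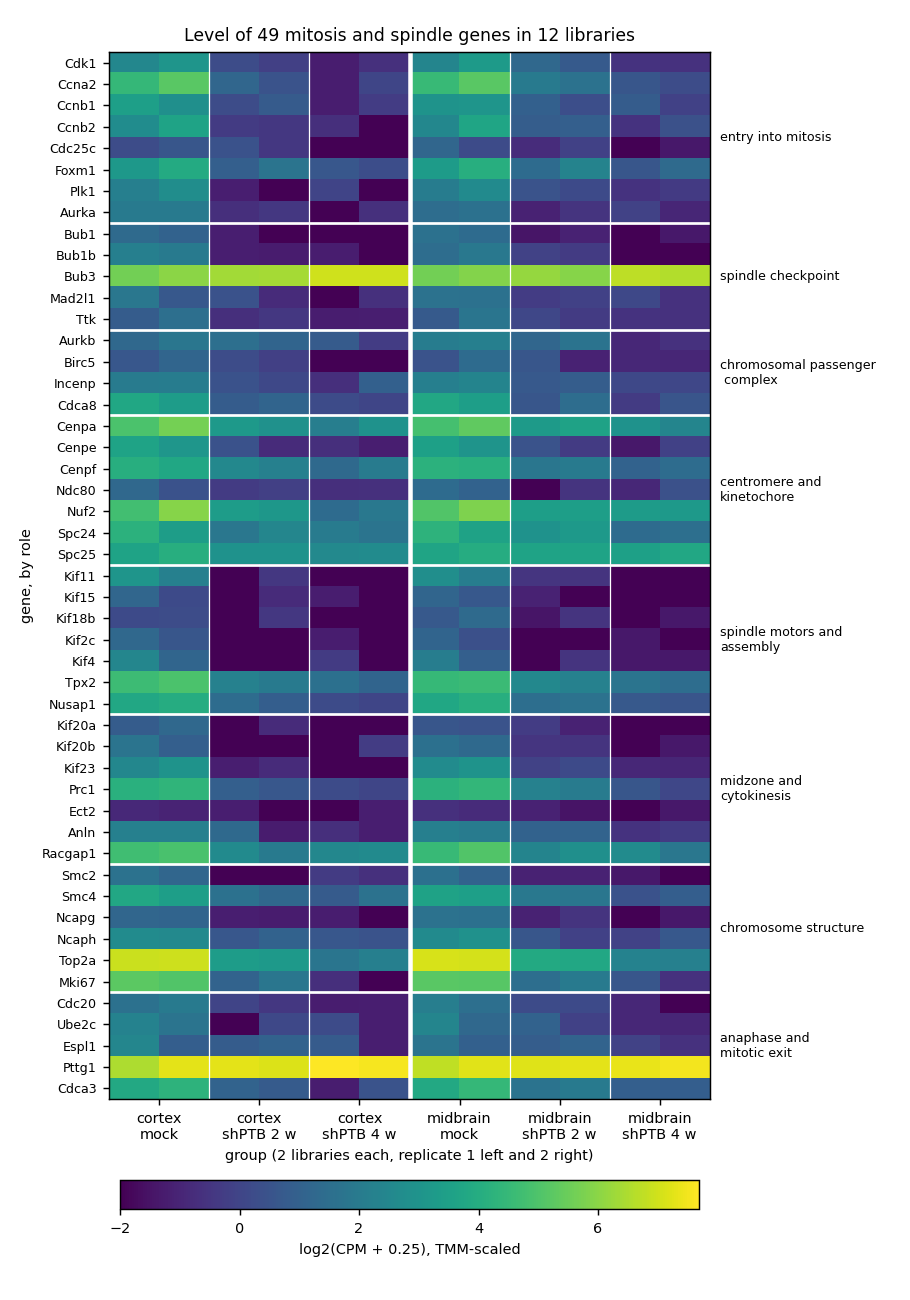
Level of each of the 49 members (rows, by role) in each of the 12 libraries (columns, 2 per group), as log2(CPM + 0.25). Most genes are brighter in the mock columns than in the shPTB columns of the same region, while Bub3 and Pttg1 are bright in all 12.

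Among the genes that drive entry into mitosis, all 8 were lower at 4 weeks in both regions, and 7 of 8 at 2 weeks in each, Cdc25c being the other. Their summed level was 62.0 and 90.5 CPM in cortex mock, 7.86 and 7.79 CPM at 2 weeks and 2.93 and 3.07 CPM at 4 weeks. In midbrain it was 59.1 and 93.3, 13.2 and 13.7, and 5.94 and 6.29 CPM. Cdk1 (chr10:69335146-69352938, minus strand), the kinase that sets off mitosis, measured 5.40 and 7.96 CPM in cortex mock, 0.936 and 0.649 CPM at 2 weeks and 0.183 and 0.384 CPM at 4 weeks. In midbrain it measured 5.05 and 9.5 CPM in mock, 2.15 and 1.43 CPM at 2 weeks and 0.414 and 0.402 CPM at 4 weeks. No shPTB library reached a mock library. Cdk1 was 8.28-fold lower in cortex at 2 weeks (log2 fold change -3.06 ± 0.48, adjusted p = 0.000707) and 17.4-fold lower in midbrain at 4 weeks (-4.11 ± 0.51, adjusted p = 0.000131).

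Its cyclin partners followed. Ccna2, cyclin A2, had 21.6 and 37.2 CPM in cortex mock, 2.06 and 1.14 CPM at 2 weeks and 0.183 and 0.769 CPM at 4 weeks, a fall of 18.0-fold and then 60.2-fold against mock. In midbrain it had 22.8 and 36.7 CPM in mock, 3.73 and 2.87 CPM at 2 weeks and 1.24 and 0.937 CPM at 4 weeks, 8.84-fold and 26.8-fold below mock. Mock library 2 was the higher in each region, and the shPTB libraries were all far below both. The B-type cyclins Ccnb1 and Ccnb2 were lower in all 4 comparisons, by 7.56-fold and 16.9-fold in cortex at 2 weeks and by 7.13-fold and 11.6-fold in midbrain at 4 weeks. Foxm1, a transcription factor of G2 and mitosis, fell by 4.65-fold and 10.1-fold in cortex and 3.63-fold and 7.35-fold in midbrain. Plk1, a kinase of the centrosome and kinetochore, fell 4.88-fold and 10.3-fold in midbrain, and Aurka, the Aurora kinase of spindle poles, 7.89-fold and 5.56-fold. The phosphatase gene Cdc25c, which frees Cdk1 from inhibition, had only 32 and 52 reads in the mock groups of cortex and midbrain. It did not pass at 2 weeks in cortex (-0.46 ± 0.75, adjusted p = 0.660) or midbrain (-1.55 ± 0.72, adjusted p = 0.130), and at 4 weeks it was at least 3.82-fold lower in cortex, where it had no read.

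Of the 5 spindle checkpoint genes, 4 were lower at 4 weeks in each region and Bub3 was the exception. Bub1 and Bub1b, the checkpoint kinase and its relative BubR1, had 2.27 and 1.83 CPM and 4.24 and 3.74 CPM in cortex mock, and 2.82 and 2.38 CPM and 2.5 and 3.47 CPM in midbrain mock. No shPTB library exceeded 0.221 CPM for Bub1 or 0.679 CPM for Bub1b. Bub1 was at least 7.40-fold lower in cortex at 4 weeks, with no read, and Bub1b at least 14.4-fold lower in midbrain at 4 weeks, with no read. Ttk, the kinase Mps1 that starts checkpoint signalling, was 4.56-fold lower in cortex at 2 weeks and 3.29-fold and 5.40-fold lower in midbrain at 2 and 4 weeks. Its mock groups held 59 and 75 reads, and these 3 calls were lost without some single library (adjusted p = 0.113 without the first cortex 2-week library, 0.198 without midbrain mock library 2 at 2 weeks and 0.0645 without the second midbrain 4-week library). Mad2l1, which inhibits Cdc20, was not called in cortex at 2 weeks (-1.75 ± 0.72, adjusted p = 0.0822) and was lower in the other 3 comparisons, each call being lost without some 1 library (adjusted p up to 0.176).

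Bub3 (chr7:131560222-131571895, plus strand), the adaptor that brings Bub1 and BubR1 to kinetochores and also a partner of splicing factors, went the other way. It had 49.1 and 63.2 CPM in cortex mock, 80.5 and 82.9 CPM at 2 weeks and 126 and 128 CPM at 4 weeks. The midbrain levels were 49.4 and 59.4 CPM in mock, 70.3 and 60.5 CPM at 2 weeks and 105 and 94.4 CPM at 4 weeks. Each shPTB library stood above both mock libraries of its region. On the TMM scale Bub3 was higher in cortex at 2 weeks (0.54 ± 0.18, adjusted p = 0.0411; 0.175 without cortex mock library 1, 0.125 and 0.157 without either 2-week library) and 4 weeks (1.18 ± 0.19, adjusted p = 0.000563) and at 4 weeks also in midbrain (0.88 ± 0.18, adjusted p = 0.00369). With reads scaled to library totals it turned to -0.17 in cortex and -0.39 in midbrain at 2 weeks, and its 4-week calls were lost in both regions. With an offset for transcript length it was between -0.22 and -0.48 in all 4 comparisons. In midbrain at 2 weeks it did not pass (0.27 ± 0.18, adjusted p = 0.294). The higher calls of members were of Bub3 alone, 1 of 48 in 3 comparisons and 0 in midbrain at 2 weeks, where 17.5, 18.5, 15.9 and 18.7% of all genes were higher in cortex at 2 and 4 weeks and midbrain at 2 and 4 weeks. Most of its reads, 3002 in mock and 4389 in shPTB libraries, were assigned to Bub3-204, a transcript annotated as subject to nonsense-mediated decay, against 455 and 536 for the coding Bub3-201. Such an assignment does not set Bub3 apart, although most members had most of their mock reads on coding transcripts. Most mock reads of Cenpa and Kif20b also lay on a transcript annotated for this decay, and those of Ncaph on a retained-intron transcript. Cenpa, Kif20b and Ncaph were lower in all 4 comparisons.

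The chromosomal passenger complex, which corrects wrong attachments and later guides cleavage, has Aurora B (Aurkb) as its kinase and Incenp, survivin (Birc5) and borealin (Cdca8) as its other subunits. All 4 were lower at 4 weeks in both regions, and Incenp and Cdca8 also at 2 weeks. Cdca8 had 13.5 and 10 CPM in cortex mock, 1.5 and 1.95 CPM at 2 weeks and 0.916 and 0.769 CPM at 4 weeks, and 13.6 and 10.4, 1.24 and 2.54, and 0.553 and 1.21 CPM in midbrain. It was 6.91-fold and 14.2-fold lower in cortex and 6.38-fold and 13.7-fold lower in midbrain. Incenp fell 4.07-fold and 3.78-fold in cortex and 3.16-fold and 5.62-fold in midbrain.

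Aurkb (chr11:69045647-69051664, plus strand) was called at 4 weeks and not at 2 weeks. It had 2.15 and 3.26 CPM in cortex mock, 2.62 and 1.95 CPM at 2 weeks and 1.47 and 0.576 CPM at 4 weeks. Midbrain libraries had 3.91 and 4.30 CPM in mock, 2.04 and 2.98 CPM at 2 weeks and 0.276 and 0.402 CPM at 4 weeks. The 2-week and mock libraries of cortex overlapped, and the test found no difference in cortex (-0.24 ± 0.42, adjusted p = 0.682; 0.08 without cortex mock library 2) or midbrain (-0.71 ± 0.39, adjusted p = 0.186) at that time. At 4 weeks it was 12-fold lower in midbrain (adjusted p = 0.000435) and 2.54-fold lower in cortex (adjusted p = 0.0411; 0.138 without cortex mock library 2 and 0.258 without the second 4-week library). The reads left at 2 weeks lay on Aurkb-207, a retained-intron transcript, with 14.0 and 12 reads in the cortex and 18.0 and 27.0 in the midbrain libraries. The coding Aurkb-202 had 10 to 12 reads in each mock library, none in any 2-week library and 1 read in all 4-week libraries together. Aurkb-207 already held most of the Aurkb reads in every mock library. Whether the share of the transcripts changed was not tested.

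Centromere and kinetochore genes fell in most comparisons, 6 of 7 in cortex at each time and 5 of 7 in midbrain. Their summed level stood at 25 and 15.5% of mock in cortex at 2 and 4 weeks and 33.1 and 24.5% in midbrain, against 10.3, 3.93, 17.7 and 8.03% for the entry genes. The difference between the groups of genes was not tested. The centromeric histone Cenpa was 4.84-fold and 6.73-fold lower in cortex and 3.20-fold and 5.40-fold lower in midbrain. The kinetochore motor Cenpe fell 15.1-fold in cortex at 2 weeks and 11.5-fold and 23.6-fold in midbrain, and its large partner Cenpf 3.16-fold and 5.12-fold in cortex and 5.07-fold and 8.47-fold in midbrain. Sequence found also in other genes made up 25.5% of the 31-base words in the last 500 bases of Cenpf, 21.9% of Mki67, 22.6% of Cdc20, 16.2% of Kif11, 15.1% of Kif15 and 10.2% of Cenpa, so their counts are less certain.

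The 4 subunits of the Ndc80 complex, the direct link to microtubules, were called in 1 to 4 of the 4 comparisons with mock. Nuf2 (chr1:169497934-169531464, minus strand) had 27.1 and 61.1 CPM in cortex mock, 9.92 and 8.44 CPM at 2 weeks and 2.38 and 3.46 CPM at 4 weeks. For midbrain the values were 33.5 and 55.7 CPM in mock, 10.4 and 10.5 CPM at 2 weeks and 9.67 and 9.11 CPM at 4 weeks. It was thus lower than mock throughout, by 4.54-fold and 14.3-fold in cortex and 4.18-fold and 4.65-fold in midbrain, and at 4 weeks both midbrain libraries were above both cortex libraries.

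Spc25 (chr2:69193895-69206194, minus strand) was called in cortex and not in midbrain. In cortex it had 12.1 and 16.5 CPM in mock, 7.49 and 7.47 CPM at 2 weeks and 5.68 and 6.15 CPM at 4 weeks, lower by 1.87-fold (adjusted p = 0.0100) and 2.36-fold (adjusted p = 0.00175). In midbrain it had 12.3 and 15.8 CPM in mock, 11.9 and 11.9 CPM at 2 weeks and 11.2 and 13.7 CPM at 4 weeks. At 4 weeks 1 midbrain library lay between the mock libraries and 1 below both, with no call at 2 weeks (-0.24 ± 0.22, adjusted p = 0.438) or 4 weeks (-0.17 ± 0.22, adjusted p = 0.556; 0.02 without midbrain mock library 2). Spc24, its partner, was lower in cortex by 3.49-fold and 4.37-fold and in midbrain at 4 weeks by 6.21-fold, but was not called in midbrain at 2 weeks (-0.89 ± 0.33, adjusted p = 0.0622). Ndc80 itself had 51 and 72 reads in the mock groups and was called only in midbrain at 2 weeks (9.47-fold lower, adjusted p = 0.0168; 0.103 without the first 2-week library and 0.0534 without midbrain mock library 1), with 2.81-fold, 4.57-fold and 3.11-fold lower levels that did not pass elsewhere.

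RNAs of the spindle motors were low or undetected after shPTB. Kif11, the kinesin-5 motor that pushes the poles apart, had 8.08 and 4.46 CPM in cortex mock and 6.67 and 4.11 CPM in midbrain mock. At 2 weeks it had 0 and 0.487 CPM in cortex and 0.453 and 0.441 CPM in midbrain, and at 4 weeks no read in any library. That is at least 23.3-fold lower in cortex and at least 27.0-fold lower in midbrain at 4 weeks. Kif15, which can take over from Kif11, had no read in midbrain at 4 weeks (at least 8.36-fold lower), and the microtubule depolymerase Kif2c none at 2 weeks in cortex (at least 6.82-fold) or midbrain (at least 9.12-fold). The chromokinesin Kif4 had none in cortex at 2 weeks (at least 14.8-fold), and Kif18b, which trims astral microtubules, none in cortex at 4 weeks (at least 3.22-fold). In cortex at 2 weeks neither Kif15 (adjusted p = 0.0597, 8.88-fold, interval 2.32 to 75.6) nor Kif18b (adjusted p = 0.204, 3.48-fold, interval 1.07 to 17.9) was called, while the other 26 of 28 motor and assembly values were. The 2 assembly factors had more reads. Tpx2, which activates Aurora A, had 24.6 and 30.6 CPM in cortex mock, 4.49 and 3.73 CPM at 2 weeks and 2.75 and 1.92 CPM at 4 weeks, and was 4.66-fold and 8.31-fold lower in midbrain. Nusap1, which bundles microtubules near chromosomes, was 7.24-fold and 17.1-fold lower in cortex and 5.39-fold and 11.4-fold lower in midbrain.

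**Figure D3:**
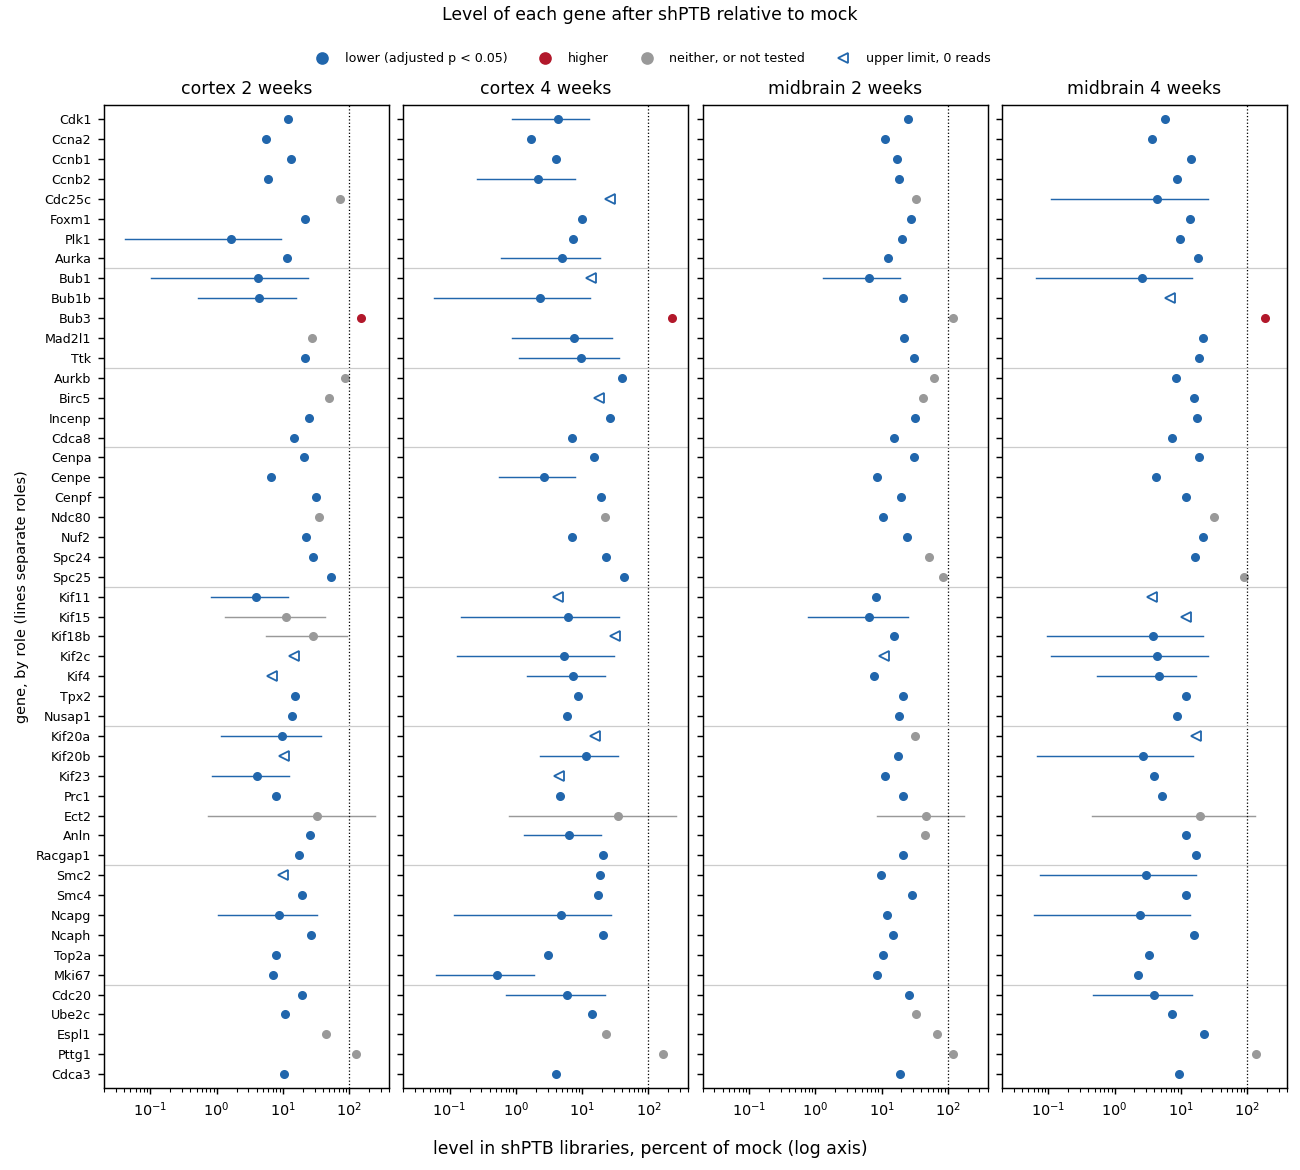
Level of each member after shPTB as a percent of the region's mock level (log axis), in 4 panels for cortex and midbrain at 2 and 4 weeks. Each level is the group's summed reads over its summed TMM-scaled library sizes. Lines through points are exact 95% intervals for groups of 1 to 3 reads, and open triangles are upper limits for groups with 0 reads. Most points lie left of the dotted line at 100%. Taken instead from mean CPM, the median percent of mock was 14.7 and 6.62% in cortex and 20.6 and 8.69% in midbrain at 2 and 4 weeks. Only Bub3 and Pttg1 lie right of the line on this TMM scale, both of which reverse under another scaling.

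Genes of the spindle midzone and of cytokinesis fell as well, with 6 of 6 tested called in cortex at both times and in midbrain at 4 weeks. Prc1 (chr7:80294450-80316259, plus strand), which crosslinks the midzone, had 17.3 and 20.2 CPM in cortex mock, 1.68 and 1.30 CPM at 2 weeks and 0.916 and 0.769 CPM at 4 weeks. The midbrain levels were 18.4 and 21.2 CPM in mock, 4.53 and 3.86 CPM at 2 weeks and 1.24 and 0.803 CPM at 4 weeks. The libraries of a group were close, and Prc1 was lower by 12.5-fold and 21.9-fold in cortex and 4.70-fold and 19.3-fold in midbrain. Kif23 and Racgap1 form centralspindlin, which signals to the cleavage furrow. Kif23 had 5.35 and 7.64 CPM in cortex mock and no read there at 4 weeks (at least 22.4-fold lower), and was 8.72-fold and 25.1-fold lower in midbrain. Racgap1 was 5.79-fold and 4.92-fold lower in cortex and 4.68-fold and 5.91-fold lower in midbrain. The motors Kif20a and Kif20b were each at 0 reads in at least 1 group, Kif20a in both regions at 4 weeks (at least 6.33-fold lower in cortex and at least 5.91-fold lower in midbrain). Anln, the scaffold anillin, and Kif20a were not called in midbrain at 2 weeks (2.18-fold lower, adjusted p = 0.138, and 3.08-fold lower, adjusted p = 0.14). Ect2, which switches on RhoA in the furrow, had 8 reads in cortex mock and 12 in midbrain mock and 1 to 3 in each shPTB group, with intervals of the ratio that all included 1. All of its mock reads and 1 of its 6 shPTB reads lay on Ect2-212, annotated as subject to nonsense-mediated decay.

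Chromosome structure genes were lower in all 24 values, 6 genes in 4 comparisons. Top2a (chr11:98992943-99024189, minus strand), the topoisomerase that untangles sister chromatids, had 119 and 125 CPM in cortex mock, 10.1 and 8.93 CPM at 2 weeks and 3.11 and 4.23 CPM at 4 weeks. Midbrain libraries had 138 and 134 CPM in mock, 14.5 and 13.9 CPM at 2 weeks and 4.70 and 4.42 CPM at 4 weeks. Libraries of a group differed little, and Top2a fell 12.8-fold (-3.67 ± 0.19, adjusted p = 3.83e-07) and 33.1-fold (-5.05 ± 0.21, adjusted p = 1.67e-07) in cortex and 9.59-fold and 29.9-fold in midbrain (adjusted p = 6.18e-07 and 1.19e-07). Mki67 (chr7:135689784-135716361, minus strand) encodes Ki-67, the coat protein of mitotic chromosomes used as a marker of dividing cells. It had 38.2 and 33.3 CPM in cortex mock, 1.87 and 3.25 CPM at 2 weeks and 0.366 and 0 CPM at 4 weeks, and 37.1 and 36.0, 2.60 and 3.75, and 1.24 and 0.402 CPM in midbrain. The 2 reads left in cortex at 4 weeks gave a ratio of 193-fold, with an interval of 53.2 to 1590, and in midbrain it was 44.8-fold lower. The condensin subunits Smc2, Smc4, Ncapg and Ncaph fell too, Smc4 by 5.10-fold and 5.76-fold in cortex and 3.42-fold and 8.28-fold in midbrain, and Ncaph 3.80-fold, 4.88-fold, 6.81-fold and 6.34-fold.

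Genes of anaphase and exit from mitosis split. Cdc20, the activator of the anaphase-promoting complex, was 5.13-fold lower in cortex and 3.85-fold lower in midbrain at 2 weeks, and at 4 weeks 16.7-fold (interval 4.48 to 140) and 25.3-fold (interval 6.85 to 211) lower on 2 reads a group. Cdca3, which promotes destruction of the mitotic inhibitor Wee1, fell 9.78-fold and 24.6-fold in cortex and 5.22-fold and 10.7-fold in midbrain. Ube2c, the ubiquitin-conjugating enzyme of that complex, was called lower except in midbrain at 2 weeks (3.04-fold lower, adjusted p = 0.111), and its 3 calls were lost without some 1 library (adjusted p up to 0.160). Espl1, the separase that cuts cohesin, had 5.17 and 1.59 CPM in cortex mock and 1.5 and 1.79 CPM at 2 weeks. These overlapped, and it was called only in midbrain at 4 weeks (4.54-fold lower, adjusted p = 0.0479; 0.184 without midbrain mock library 1, 0.125 without the first and 0.222 without the second 4-week library).

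Pttg1 (chr11:43420250-43426251, minus strand) encodes securin, which holds separase inactive and also acts on transcription. It had 89.0 and 158 CPM in cortex mock, 155 and 145 CPM at 2 weeks and 206 and 190 CPM at 4 weeks. For midbrain the values were 108 and 153 CPM in mock, 150 and 156 CPM at 2 weeks and 164 and 185 CPM at 4 weeks. The mock libraries differed widely, those numbered 2 being level with the 2-week libraries, while at 4 weeks both libraries were above both mock libraries in each region. No comparison passed: 0.28 ± 0.26 (adjusted p = 0.430) and 0.68 ± 0.26 (adjusted p = 0.0599) in cortex and 0.24 ± 0.26 (adjusted p = 0.515) and 0.42 ± 0.26 (adjusted p = 0.217) in midbrain, values that turned to between -0.35 and -0.43 with reads scaled to library totals. Salmon divided its reads among 4 coding transcripts unevenly even between libraries of a group (Pttg1-203 had 542 and 0 reads in the cortex 2-week libraries), so no transcript is compared.

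**Figure D4:**
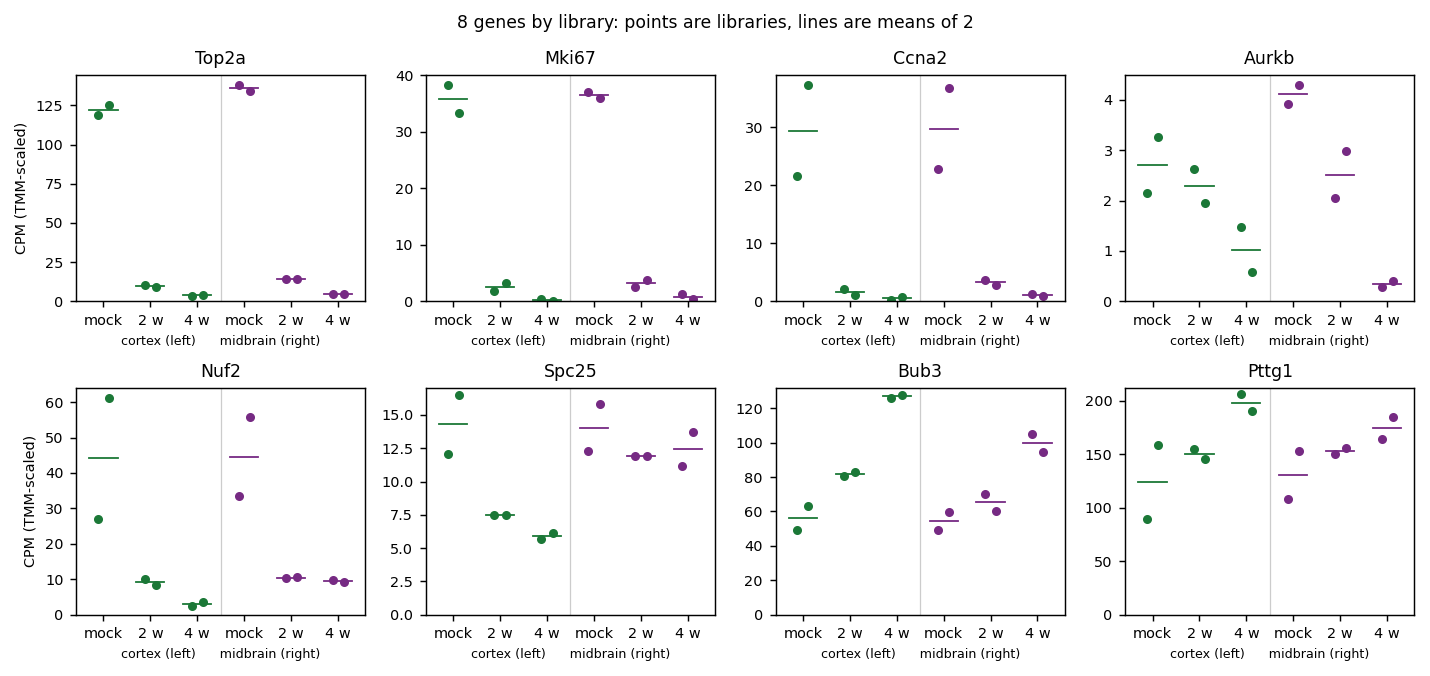
Level in CPM of 8 members in each library, cortex in green and midbrain in purple; points are libraries, short lines the means of 2. Top2a, Mki67 and Ccna2 drop to under 15 CPM in the shPTB libraries, Aurkb overlaps mock in cortex at 2 weeks, Spc25 stays between 11.2 and 13.7 CPM in the midbrain shPTB libraries, and Bub3 and Pttg1 end above mock at 4 weeks on this TMM scale, which reverses for Pttg1 when reads are scaled to library totals and for Bub3 with a transcript length offset.

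Few changes between 2 and 4 weeks passed the test. In cortex 2 members were lower at 4 than at 2 weeks (2.22% of all genes tested), and in midbrain 4 (1.70%). Both 4-week libraries lay below both 2-week libraries in 24 of 49 members in cortex (27.4% of all genes) and 32 in midbrain (32.4%). Median log2 fold changes were -1.06 and -1.13, against 0.00 and -0.04 for all genes. Top2a was 2.59-fold lower in cortex (-1.37 ± 0.22, adjusted p = 0.00784) and 3.11-fold lower in midbrain (-1.64 ± 0.19, adjusted p = 0.00245). Mki67 was the other call in cortex (13.9-fold lower, interval 3.53 to 120, adjusted p = 0.0316). In midbrain Prc1 fell 4.11-fold (adjusted p = 0.00965), Aurkb 7.39-fold (adjusted p = 0.0257) and Spc24 3.29-fold (adjusted p = 0.0443). These counts rest on pairs of libraries: without 1 library they were 0 to 1 in cortex (none without the first 2-week or the first 4-week library) and 0 to 2 in midbrain (none without either 4-week library). Bub3 did not pass in cortex (0.63 ± 0.19, adjusted p = 0.116) or midbrain (0.61 ± 0.18, adjusted p = 0.113).

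Few differences between the regions passed the test, and at 2 weeks most members stood higher in midbrain. In mock cultures no member was called between midbrain and cortex in edgeR or DESeq2, none had an unadjusted p under 0.05, and 0.938% of all genes were lower and 1.25% higher in midbrain. Same-numbered mock libraries of the 2 regions deviated together (correlation 0.715). The main test does not model this, so differences between the mock groups, or between the regions' responses, may have been missed. At 2 weeks Prc1 was higher in midbrain (2.84-fold, 1.49 ± 0.30, adjusted p = 0.0261), 1 of 48 where 2.01% of all genes were higher. Both midbrain libraries lay above both cortex libraries in 22 of 49 members at 2 weeks (30.1% of all genes) and below in 4 (27.1%), and the members' median difference was 0.49 on the log2 scale, against 0.02 for all genes. The sums of the 47 members did not overlap either, at 116 and 123 CPM in midbrain and 90.6 and 81.0 CPM in cortex. At 4 weeks Nuf2 (3.23-fold, 1.68 ± 0.45, adjusted p = 0.0445) and Spc25 (2.11-fold, 1.07 ± 0.25, adjusted p = 0.0217) were higher in midbrain, 2 of 48 where 5.48% of all genes were higher, and the members' median difference was 0.26 (0.08 with genes at 0 reads at their bound). No call between regions held without any 1 of the 4 libraries compared. Tested as a difference of the 2 regions' responses, no member passed at 2 weeks (0.685% of all genes did) or at 4 weeks (2.55%) in edgeR or DESeq2. The members' median difference of responses was 0.43 at 2 weeks and 0.37 at 4 weeks. Unadjusted p was under 0.05 for 5 members at 2 weeks, among them Prc1 (1.41 ± 0.37, adjusted p = 0.157), and for 4 at 4 weeks, among them Spc25 (1.10 ± 0.33, adjusted p = 0.128), Nuf2 (1.67 ± 0.57, adjusted p = 0.197) and Aurkb (-2.17 ± 0.76, adjusted p = 0.211).

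Other mitotic genes were looked up from a list of 79, of which 68 were tested. Lower calls were made for 38 and 36 in cortex and 38 and 47 in midbrain at 2 and 4 weeks, where 17.6, 20.9, 14.7 and 20.4% of all genes were lower. Their medians were -2.23, -2.68, -1.92 and -2.51, against -0.11, -0.12, -0.07 and -0.15 for all genes. The only higher call each time was of Cenpw, where 17.5, 18.5, 15.9 and 18.7% of all genes were higher. As for the members, these counts are a description and no test of the list. Melk, a kinase of dividing cells, had 6.80 and 11.1 CPM in cortex mock and 0.936 and 0.649 CPM at 2 weeks (11-fold lower), and was 14.1-fold and 23.2-fold lower in midbrain. Stil, a centriole assembly factor, was 9.85-fold lower in cortex at 2 weeks and 9.96-fold and 21.3-fold lower in midbrain. Cenpw, a histone-fold subunit of the inner kinetochore, had 18.3 and 14.3 CPM in cortex mock, 47.5 and 46.4 CPM at 2 weeks and 66.7 and 69.2 CPM at 4 weeks. In midbrain it had 15.4 and 14.3 CPM in mock, 37.7 and 33.8 CPM at 2 weeks and 40.5 and 38.3 CPM at 4 weeks. All shPTB libraries were above all mock libraries, with log2 fold changes of 1.52, 2.05, 1.27 and 1.41 (adjusted p up to 0.000332), though in midbrain the call was lost with reads scaled to library totals (0.59 and 0.53, adjusted p = 0.0677 and 0.0829).

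The subunits of the anaphase-promoting complex, which also works outside mitosis, were called lower or higher in a minority of cases, and the balance depended on the scaling. Of 15 tested, 4 and 3 were lower and 1 and 2 higher in cortex at 2 and 4 weeks, and 5 and 4 lower and 1 and 2 higher in midbrain, where 17.6, 20.9, 14.7 and 20.4% of all genes were lower in these 4 comparisons. Scaled to library totals, 11 to 12 were lower and 0 to 1 higher, while with the transcript length offset 3, 2, 3 and 2 were lower and 3, 5, 3 and 7 higher. Anapc5, a scaffold subunit, had 122 and 93.2 CPM in cortex mock and 49 and 50.3 CPM at 2 weeks, and was 2.21-fold and 2.09-fold lower in cortex and 2.34-fold and 2.00-fold lower in midbrain. Anapc4 was lower by 2.10-fold to 3.18-fold in all 4 comparisons. Anapc10 and Cdc27 were lower in 3 of 4, Cdc16 in 1 (cortex at 4 weeks, 1.89-fold), and Cdc16 rose there with the length offset (0.92, adjusted p = 0.0105). Anapc16, a small subunit, was higher in all 4 (0.87 ± 0.22, 1.24 ± 0.23, 1.13 ± 0.23 and 1.34 ± 0.23), and without a call in cortex when scaled to library totals (0.19 and 0.21). Anapc11, the catalytic RING subunit, was higher at 4 weeks in cortex (0.73 ± 0.17) and midbrain (0.75 ± 0.17) on the TMM scale and turned to -0.34 and -0.11 with library totals.

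Among 21 tested regulators of these genes, 7 and 8 were lower in cortex and 5 and 10 in midbrain at 2 and 4 weeks, and 2 were higher each time, beside the same shares of all genes. Scaled to library totals, 10 and 15 were lower in cortex and 13 and 12 in midbrain, and none was higher. Those 2 were Lin37 with E2f3 and then Lin52 in cortex, and Lin37 with Lin52 and then Nfyc in midbrain, of which Lin37, E2f3 and Nfyc are named here after their values were seen. Mybl2, the B-Myb activator, had 14.3 and 24.1 CPM in cortex mock, 9.73 and 11.8 CPM at 2 weeks and 2.20 and 2.11 CPM at 4 weeks. It was not called in cortex at 2 weeks (-0.82 ± 0.31, adjusted p = 0.0624), was 8.55-fold lower there at 4 weeks, and was 2.71-fold and 5.09-fold lower in midbrain. The activator E2f1 was lower in 3 of 4 comparisons (2.40-fold to 6.67-fold) and E2f2 in all 4, by 6.08-fold in cortex and 6.35-fold in midbrain at 2 weeks. E2f5 was called in cortex, 4.58-fold lower at 2 weeks, and not in midbrain (3.16-fold lower, adjusted p = 0.0980, and 3.17-fold lower, adjusted p = 0.0941), and both cortex calls were lost without cortex mock library 1 (adjusted p = 0.307 and 0.0534). E2f4, the E2F of the repressor complex, was lower in all 4 by 1.83-fold to 2.40-fold, each call being lost without some 1 library (adjusted p up to 0.252), and Rb1, the retinoblastoma protein, by 2.52-fold to 5.45-fold. Its relative Rbl2, or p130, was lower only in midbrain at 4 weeks (-0.61 ± 0.19, adjusted p = 0.0261) and Rbl1, or p107, was not tested, with 7 and 19 reads in the mock groups. The MuvB subunits Lin9 and Lin54 were not called in any comparison (adjusted p from 0.0972 to 0.894), and Lin52 was higher in cortex at 4 weeks (2.03 ± 0.42, adjusted p = 0.00305) and midbrain at 2 weeks (1.28 ± 0.43, adjusted p = 0.0413), both lost with library totals. Among the named genes that are no members, 9 of 15 calls in cortex at 2 weeks, 4 of 17 at 4 weeks, 7 of 15 in midbrain at 2 weeks and 5 of 16 at 4 weeks were lost without some 1 library, those of Anapc4, Anapc10, Cdc27, E2f1, E2f4, E2f5 and Rb1 in 2 or more comparisons.

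Some members lie over genes of the other strand: shared exon bases were 29.3% of Kif20a (with Cdc23), 22.8% of Ube2c (with Tnnc2), 15.1% of Kif4 (with Pdzd11), 13.4% of Ncapg (with Lcorl) and 12.5% of Ccna2 (with Exosc9). No source used here says whether counting used strand, so reads of these pairs may be mixed.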

How the data were processed

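For the 12 mouse astrocyte libraries, total RNA was reverse transcribed from a primer named Biotin-B-T and the second strand made with random primers, per the labels' protocols, which name no molecular identifiers. Per the submitters' processing notes, the authors ran cutadapt 2.3, Salmon 0.14.1 and DESeq2 on the build mm10. Which annotation release they took, no source used here gives. Each deposited file holds Salmon's estimated counts of transcripts, not normalized. Its TPM column, also deposited, entered only the transcript length offset, as the weights of a gene's transcripts.

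Of 140658 transcripts, 140137 matched GENCODE M21 (GRCm38), while the other 521 (0.0547 to 0.129% of reads) stayed out. Counts were summed to 54356 genes and rounded, since 56.3% of values over 0 were not whole. Genes were filtered by filterByExpr (minimum count 10, total 15), scaled by TMM and tested in R 4.3.3 with the quasi-likelihood test of edgeR 4.0.16 on all 6 groups (14607 genes, dispersion 0.0550, 6 residual degrees of freedom, 11 contrasts), with Benjamini-Hochberg adjustment at 0.05. All adjusted p are edgeR's unless DESeq2 1.42.0 is named, and ± after a log2 fold change is a standard error. Folds not on the log2 scale are ratios of a group's summed reads over its summed TMM-scaled library sizes. The number of reads limits precision, 3 reads in a library being 0.163 to 0.576 CPM. On simulated counts of the cortex 2-week contrast (5 runs of 14039 to 14186 genes), the test recovered 7.60% of 2-fold, 64.0% of 4-fold and 80.4% of 8-fold changes, and 4.50% of its calls fell on unchanged genes. The simulation changed few genes, in random directions, and drew each library independently, whereas in the data 17.6% of genes were lower and 17.5% higher. These shares therefore need not hold for the calls reported here.

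The members and gene lists were chosen with earlier results of these data known. Named besides the members were, from each list, the 2 called genes with the largest falls and the 1 with the largest rise in cortex at 4 weeks, the anaphase-promoting complex subunits called at 4 weeks, 8 regulators chosen by name, and Ptbp1 and Ptbp2. Alternatives were other scalings, filters, DESeq2, a transcript length offset, a replicate block, fewer groups and left-out libraries.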

Additional observations from a re-analysis of the deposited data

How the results depend on the processing

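Counts below are genes called in either direction, first for the comparisons with mock (cortex 2 and 4 weeks, midbrain 2 and 4 weeks). Of 2816 alternative values of the members' fold changes against mock, 2594 kept direction and side of the threshold, 143 lost the call, 58 gained one and 21 reversed; the causes were not tested. Depth limits the rest: in cortex at 4 weeks 23 of 49 members had at most 3 reads.

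Leaving out 1 library gave 30 to 41, 37 to 47, 25 to 37 and 37 to 43 members called (25 without midbrain 2-week library 1 and 27 without library 2). It gave 26 to 39, 26 to 36, 20 to 34 and 29 to 48 other mitotic genes, 1 to 8, 3 to 9, 2 to 9 and 4 to 7 anaphase-promoting complex subunits, and 2 to 8, 7 to 12, 2 to 6 and 6 to 12 regulators. Between 4 and 2 weeks it gave 0 to 1 members in cortex and 0 to 2 in midbrain, between regions 0 in mock, at 2 weeks and at 4 weeks, and for the interactions 0 at 2 weeks and 0 to 1 at 4 weeks.

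Scaled to total reads, 16.5, 9.28, 17.1 and 13.1% of all calls were higher, against 49.8, 47, 51.8 and 47.8% with TMM. The complex then had 11, 12, 13 and 12 calls, the other mitotic genes 63 in cortex at 4 weeks, the regulators 13 in midbrain at 2 weeks, members 5 in cortex between 4 and 2 weeks and 2 in the interaction at 4 weeks. No member was called higher than mock with that scaling, at 2 or 4 weeks. Bub3 turned to -0.17 in cortex and -0.39 in midbrain at 2 weeks, Pttg1 to -0.40, -0.35, -0.41 and -0.43, Anapc11 to -0.37, -0.34, -0.49 and -0.11, Lin9 to -0.19 and Lin54 to -0.52 in cortex at 2 weeks, and Rbl2 to -1.06 in cortex at 4 weeks. With the transcript length offset Bub3 was -0.31, -0.26, -0.48 and -0.22, Cdc16 0.56, 0.92, 0.37 and 0.85, Pttg1 -0.14 and Rbl2 0.10 in cortex at 2 weeks, Lin9 0.27 and Lin54 0.45 in cortex at 4 weeks, and Lin54 0.58 and Anapc10 0.55 in midbrain at 4 weeks. That offset gave 37, 38, 32 and 43 members called against mock, all lower. It also gave 4 regulators in midbrain at 2 weeks, 0 members in cortex between 4 and 2 weeks and 1 between regions at 4 weeks.

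DESeq2 called 3 regulators in midbrain at 2 weeks and 0 members between regions at 2 weeks. Without a count filter 4 members in cortex and 8 in midbrain were called between 4 and 2 weeks, 2 between regions at 2 weeks and 1 in the interaction at 4 weeks, and Rbl2 was -0.03 in cortex at 4 weeks. The filter of 5 CPM in 2 libraries tested fewer genes and left 24 members in midbrain at 2 weeks and 29 at 4 weeks, and 24, 24 and 28 other mitotic genes in cortex at 4 weeks and midbrain at 2 and 4 weeks. With only the groups compared, the complex had 1 and 3 calls in cortex, regulators 4 in cortex and 3 in midbrain at 2 weeks, members 5 in cortex and 13 in midbrain between 4 and 2 weeks and 6 between regions at 2 weeks, and Rbl2 was -0.01 in cortex at 4 weeks.

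Over the libraries left out singly, values that changed sign ranged in cortex at 2 weeks from -1.64 to 0.05 for Espl1 (positive without mock 1), -0.08 to 0.75 for Pttg1 (negative without mock 1), -0.52 to 0.08 for Aurkb (positive without mock 2), -1.15 to 0.04 for Cdc25c (positive without 2-week 2) and -0.15 to 0.04 for Rbl2. In cortex at 4 weeks they ranged from -0.61 to 0.48 for Lin9 (positive without mock 1), -1.14 to 0.36 for Lin54 (positive without 4-week 2) and -0.04 to 0.11 for Rbl2. Midbrain ranges were -0.15 to 0.12 for Rbl2 at 2 weeks, and at 4 weeks -0.35 to 0.02 for Spc25 (positive without mock 2) and -0.22 to 0.02 for Lin54. Without both mock libraries numbered 1, Espl1 was 0.05 in cortex and 0.00 in midbrain and Pttg1 -0.08 in cortex at 2 weeks, Lin9 0.48 in cortex at 4 weeks, and the interactions called 1 and 2 members. Without both numbered 2, Aurkb was 0.08 in cortex and Rbl2 0.02 in midbrain at 2 weeks, Spc25 0.02 in midbrain at 4 weeks, the complex had 11, 10, 12 and 12 calls, and the interactions called 1 and 3 members.

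The replicate number as a block gave 38, 44, 37 and 44 members called against mock, 1 in cortex and 2 in midbrain between 4 and 2 weeks, and 0 between regions at 2 and at 4 weeks. The numbers were not taken as pairing: deviations of same-numbered mock libraries of the 2 regions correlated at 0.715, and the other 14 pairs of groups at -0.027 to 0.031. Treating the mock numbers as a block shared by both regions was added after seeing the data.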

Other observations

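Ptbp2, the neuronal relative of Ptbp1, had 5.69 and 10.4 CPM in cortex mock and 6.46 and 8.15 CPM in midbrain mock, 23.8 to 27.6 CPM at 2 weeks and 23.8 to 34.0 CPM at 4 weeks, and was higher in all 4 comparisons with mock (1.58 ± 0.26, 2.04 ± 0.26, 1.87 ± 0.26 and 1.75 ± 0.26).

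The mock libraries numbered 1 and 2 differed alike in cortex and midbrain. Of 48 members tested, 40 had the higher level in the same-numbered mock library of both regions, and the difference between libraries 1 and 2 correlated at 0.75 across members, which share these libraries and are not independent. Among members, Nuf2, Ccna2 and Pttg1 were higher in the mock libraries numbered 2, and Kif11, Kif4 and Spc24 in those numbered 1. Examples were chosen after their values were seen.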
